A study of Mus musculus with 9 samples.

Results

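The Reg family encodes small secreted proteins of the C-type lectin fold, and *Reg3g*, *Reg3b* and *Reg4* are the members described here in the large intestine of *Muc2* mutant mice. They were taken as the genes whose probe sets are annotated to them alone, which gave 4 probe sets (1 for *Reg3g*, 2 for *Reg3b* and 1 for *Reg4*) for 3 of 18193 genes with a probe set of their own. They were chosen by their log2 signals in these same mice, so that their differences are given as a description, without a test. For each mouse, RNA of both ends of the large intestine was pooled and measured on 1 Affymetrix array, in 3 *Eeyore*, 3 *Winnie* and 3 wild-type mice that were all 8 wk of age and all recorded as male. *Eeyore* mice descend from a mutagenised (ENU) C57BL/6 founder and carry a serine to proline change in the D4 domain at the C terminus of Muc2, the main secreted mucin of goblet cells, on a mixed C57BL/6 and NOD-SCID background. *Winnie* mice descend from another such founder and carry a cysteine to tyrosine change in the N-terminal D3 domain, on C57BL/6, which was also the strain of the wild-type mice. The mutant allele and the strain background cannot be told apart for *Eeyore*, and each mutation was studied in a single mutant line.

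Reg3γ, the product of *Reg3g*, binds peptidoglycan and kills Gram-positive bacteria, and with its close relative Reg3β it is secreted by epithelial cells of the gut into the mucus next to the mucosa. Both genes are known to be induced by bacterial signals through MyD88 and by interleukin-22 through STAT3 in the epithelium, and Reg3β was first known as a pancreatitis-associated protein of the pancreas. *Reg4* encodes a lectin of secretory cells and marks the deep crypt secretory cells that lie between the stem cells of the mouse colon. In the GRCm38.p6 annotation, *Reg3b*, *Reg3d*, *Reg3a*, *Reg2*, *Reg1* and *Reg3g* follow each other in this order on chromosome 6, with 1 pseudogene between *Reg1* and *Reg3g*, whereas *Reg4* lies on chromosome 3.

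The promoters of the members are shown as a description. *Reg3g* and *Reg3b* were both high in *Eeyore* mice, whereas *Reg4* overlapped between the groups. Whether the promoter sequences have a part in this was not tested. Each sequence runs 5′ to 3′ along the strand of the gene from 250 bases before to 50 bases after its annotated start, from RefSeq with build GRCm38.p6. Capitals mark every match, on either strand, to TTCNNNGAA (the core of a STAT element), TTTCCC (a half-site of NF-κB) or CACCTG (an E-box), and no 2 of these matches overlap in the windows printed.
Reg3g (chr6:78468825-78469124, minus strand): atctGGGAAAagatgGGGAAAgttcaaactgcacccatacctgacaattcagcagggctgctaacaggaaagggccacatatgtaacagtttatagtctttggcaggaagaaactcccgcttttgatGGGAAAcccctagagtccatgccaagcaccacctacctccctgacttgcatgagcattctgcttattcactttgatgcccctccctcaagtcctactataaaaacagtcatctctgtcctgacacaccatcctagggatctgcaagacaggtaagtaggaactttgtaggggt
Reg3b (chr6:78370635-78370934, plus strand): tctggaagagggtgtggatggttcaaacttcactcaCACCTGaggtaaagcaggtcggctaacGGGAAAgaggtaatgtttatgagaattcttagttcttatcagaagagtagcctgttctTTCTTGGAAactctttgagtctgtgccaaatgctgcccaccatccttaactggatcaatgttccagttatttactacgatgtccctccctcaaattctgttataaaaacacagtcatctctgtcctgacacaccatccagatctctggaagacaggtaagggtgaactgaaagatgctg
Reg4 (chr3:98221906-98222205, plus strand): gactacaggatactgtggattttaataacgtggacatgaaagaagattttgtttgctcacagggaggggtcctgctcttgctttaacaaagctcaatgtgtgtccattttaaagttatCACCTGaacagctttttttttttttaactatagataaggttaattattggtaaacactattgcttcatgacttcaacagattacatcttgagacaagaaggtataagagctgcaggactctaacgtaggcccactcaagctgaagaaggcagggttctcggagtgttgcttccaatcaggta

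The *Reg3g* and *Reg3b* windows were identical at 214 of 310 aligned columns (69%), whereas the other pairs among the 7 Reg genes had between 49.1% and 58.5% identity. The longest run the *Reg3g* and *Reg3b* windows share is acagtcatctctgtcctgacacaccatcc, 29 bases that cover positions -20 to 9 from the start in both genes, just downstream of a TATAAA box in each. The longest runs shared by *Reg4* with *Reg3g* and with *Reg3b* were 6 and 7 bases. A TTCNNNGAA match lay at -129 to -121 in *Reg3b*, and none was in the *Reg3g* and *Reg4* windows, against 8.3% of 32851 promoter windows of the same length. TTTCCC matched at 3 places in *Reg3g* and 1 in *Reg3b* (25.2% of all windows hold it), and CACCTG once in *Reg3b* and once in *Reg4* (20.2% of all windows). Such a match is a stretch of letters and not a measured binding site.

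*Reg3g* had the widest range of the members. Its signal was 9853, 15070.0 and 15692 in *Eeyore* mice, 3845.5, 1408 and 901 in *Winnie* mice and 1439.7, 1397 and 941 in wild-type mice. All 3 *Eeyore* mice lay above every *Winnie* and every wild-type mouse, and the *Winnie* mice overlapped the wild-type mice on both sides, with *Winnie* mouse 1 above all of them and *Winnie* mouse 3 below all of them. The mean signal was 13538 ± 3207 (SD, n = 3 mice) in *Eeyore*, 2051 ± 1574 in *Winnie* and 1259.5 ± 276 in wild-type mice. On the log2 scale *Eeyore* differed from wild-type by 3.42 (10.7-fold) and from *Winnie* by 2.97 (7.82-fold), whereas the difference of *Winnie* from wild-type was 0.45, less than the SD of 1.07 among *Winnie* mice. Leaving out any 1 mouse kept the *Eeyore* difference from wild-type between 3.22 and 3.64, but that of *Winnie* lay between -0.14 (without *Winnie* mouse 1) and 0.91 (without *Winnie* mouse 3).

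*Reg3b* showed the same division at a smaller range. The signal of its brighter probe set was 33704, 36911 and 36459.6 in *Eeyore* mice, 19247, 7898 and 3959 in *Winnie* mice and 13076, 11893 and 9017 in wild-type mice. *Eeyore* mice again lay above all other mice and were close to each other, with a log2 SD of 0.07 against 1.14 in *Winnie* and 0.28 in wild-type mice. The *Winnie* mice spread over 4.86-fold from the highest to the lowest, in the same order of mice as for *Reg3g*. The log2 difference was 1.67 (3.19-fold) for *Eeyore* against wild-type, -0.41 for *Winnie* against wild-type and 2.08 (4.22-fold) for *Eeyore* against *Winnie*. Without *Winnie* mouse 1 the difference of *Winnie* from wild-type was -1.0 and without *Winnie* mouse 3 it was 0.14, so that its direction rested on 1 mouse.

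The other probe set of *Reg3b* gave signals of 27283, 24699 and 31154 in *Eeyore*, 17722, 8483 and 4972 in *Winnie* and 13178, 12089 and 12383 in wild-type mice. It placed the groups in the same order, with log2 differences of 1.14 for *Eeyore* against wild-type, -0.47 for *Winnie* against wild-type and 1.60 for *Eeyore* against *Winnie*. The size of the *Eeyore* difference from wild-type therefore varied between probe sets of the same gene. The suffix _s_at of the brighter one marks probes that match more than 1 transcript, and the part of related transcripts in its signal was not tested. The highest signal of any probe set was between 76593.5 and 84132 on the *Eeyore* arrays, above both *Reg3b* probe sets. A ceiling can differ between probe sets, so whether the *Reg3b* signals were near theirs cannot be read from this and was not tested.

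*Reg4* varied as much within groups as between them. Its signal was 31323.5, 20438 and 10156 in *Eeyore* mice, 5091, 10432 and 7728 in *Winnie* mice and 6495, 8065 and 24411 in wild-type mice. The groups overlapped in all 3 comparisons, and wild-type mouse 3 lay above 2 of the 3 *Eeyore* mice. Mean signals were 20639 ± 10585 in *Eeyore*, 7750.3 ± 2670.2 in *Winnie* and 12990.5 ± 9922 in wild-type mice (SD, n = 3). The log2 difference was 0.78 for *Eeyore* against wild-type, -0.55 for *Winnie* against wild-type and 1.33 for *Eeyore* against *Winnie*, beside log2 SDs of 0.82, 0.52 and 1.02 among *Eeyore*, *Winnie* and wild-type mice. Without wild-type mouse 3 the differences from wild-type were 1.37 in *Eeyore* and 0.04 in *Winnie* mice.

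**Figure D1:**
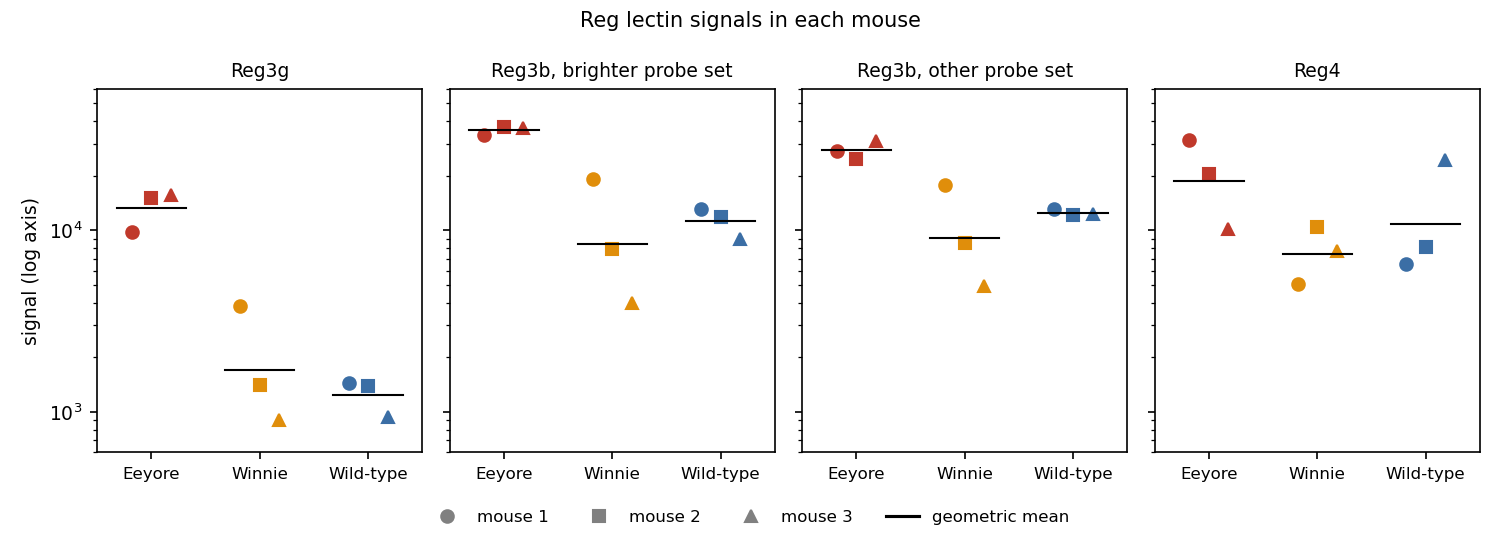
Signal of each *Reg3g*, *Reg3b* and *Reg4* probe set (log axis) in each of the 3 *Eeyore*, 3 *Winnie* and 3 wild-type mice, with the geometric mean of each group as a line. The *Eeyore* mice stand above all others for *Reg3g* and for both *Reg3b* probe sets, *Winnie* mouse 1 is the highest of its group for these, and *Reg4* overlaps in all groups.

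In order of mean level, *Eeyore* mice came first for all 3 members, with overlap for *Reg4*. *Winnie* and wild-type mice followed with no separation beyond their spread for any of them: *Winnie* had the higher mean log2 signal for *Reg3g* (10.73 against 10.27), and wild-type the higher one for *Reg3b* (13.04 in *Winnie* against 13.45) and *Reg4* (12.86 in *Winnie* against 13.41). The log2 difference from wild-type was larger for *Reg3g* than for *Reg3b* in *Eeyore* (3.42 against 1.67) and had opposite signs in *Winnie* mice (0.45 and -0.41). The log2 signal of *Reg3g* less that of *Reg3b* on the same array therefore shifted between groups. It was -1.77 to -1.22 in *Eeyore*, -2.49 to -2.14 in *Winnie* and -3.26 to -3.09 in wild-type mice, and these 3 ranges did not overlap. How often other pairs of genes separate the groups in this way was not counted. The signals of 2 probe sets are not on a common scale of abundance, so that only the shift between mice is read from this difference.

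Differences from wild-type were common on these arrays. In the limma fit over all mice, 29.3% of 22519 tested probe sets were called in *Eeyore* and 21.5% in *Winnie* against wild-type, and 2.3% in *Eeyore* against *Winnie*, at an adjusted p under 0.05. All *Eeyore* mice lay above all wild-type mice for 18.2% of the tested probe sets, and above all *Winnie* mice for 9.29%. *Reg3g* and both *Reg3b* probe sets, 3 of the 4 member probe sets, had this pattern in both comparisons, and since it is the pattern they were chosen for, nothing further is read from that count. Of the calls against wild-type, 41.7% were higher in *Eeyore* and 45.4% in *Winnie* mice, and these shares were 77.2% and 89.5% after centring each array on its median, which moved the median difference to 0.24 in *Eeyore* and 0.32 in *Winnie* mice. With that centring 8227 of the 22519 probe sets were called in *Eeyore* and 8087 in *Winnie* against wild-type. As deposited, the median log2 difference over all tested probe sets was -0.09 in *Eeyore* and in *Winnie* against wild-type, and -0.02 in *Eeyore* against *Winnie*.

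**Figure D2:**
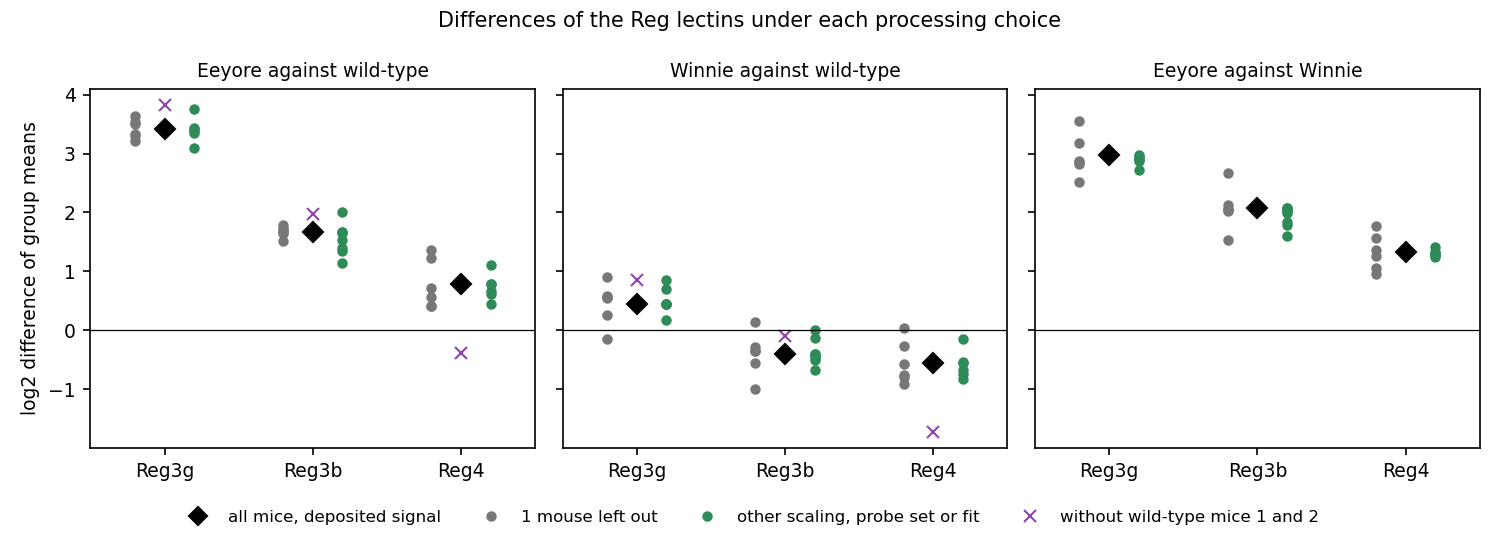
Log2 difference of group means for *Reg3g*, *Reg3b* and *Reg4* in the 3 comparisons, with all mice (diamonds), with 1 mouse left out (grey), under another scaling, probe set or fit (green) and without wild-type mice 1 and 2 (crosses). *Reg3g* and *Reg3b* stay above 0 in *Eeyore* against both other groups. The *Winnie* differences from wild-type lie between -1.0 and 0.91 with 1 mouse left out. Without wild-type mice 1 and 2 the *Reg4* difference from wild-type turns from 0.78 to -0.39 in *Eeyore* and moves from -0.55 to -1.72 in *Winnie* mice.

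Libraries and tissue differed between groups in ways that touch these values. *Xist* was at 9.13 to 107 on the mutant arrays, against 7371 to 8261 on the wild-type arrays, and Y-linked *Eif2s3y* at 1074 to 1454 on the mutant arrays, against no more than 24.1 on the wild-type arrays, which thus had the pattern of female tissue despite their record as male, so that sex and mutation cannot be told apart in any comparison with wild-type, whereas *Eeyore* and *Winnie* did not differ in this. The mean log2 signal of 12 epithelial markers was 13.90 to 13.96 in *Eeyore*, 13.82 to 13.89 in *Winnie* and 13.57 to 13.61 in wild-type mice, and all 15 smooth muscle genes fell in both strains. Relative to the epithelial markers, the *Eeyore* difference from wild-type was 3.09 for *Reg3g*, 1.34 for *Reg3b* and 0.45 for *Reg4*. Of 12 large-intestine markers, 9 were measured and only *Muc2* differed, with signals of 35110.0 ± 2271 in *Eeyore*, 32081 ± 5494 in *Winnie* and 76999 ± 8135 in wild-type mice (log2 differences of -1.13 and -1.27, adjusted p = 7.67e-05 and 8.01e-05). In whole tissue, fewer cells of a type and less RNA per cell cannot be told apart.

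The 4 other Reg genes, *Reg1*, *Reg2*, *Reg3a* and *Reg3d*, are known as genes of the exocrine pancreas and regenerating islets, and they followed another pattern than the members. *Reg1* had signals of 1704, 854 and 615 in *Eeyore*, 166, 567 and 117 in *Winnie* and 11785, 11159 and 93.5 in wild-type mice. *Reg2* had 1604, 559 and 737 in *Eeyore*, 410.3, 1181 and 132 in *Winnie* and 2259, 2269 and 120 in wild-type mice. For all 4 genes wild-type mice 1 and 2 were the highest of the 9 mice and wild-type mouse 3 the lowest. None of the 3 that were tested was called in any comparison (*Reg1*, *Reg2* and *Reg3d*), and *Reg3a*, at 6.61 to 201, was too dim to be tested. This rested on wild-type mouse 3: without it, *Reg1* fell by 3.57 in *Eeyore* (adjusted p = 0.00152) and by 5.69 in *Winnie* mice (0.000196), *Reg3d* fell in both (adjusted p = 0.0201 and 0.0078) and *Reg2* fell in *Winnie* mice (0.0309).

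Pancreatic transcripts divided the wild-type mice in the same way. The summed signal of 14 measured acinar markers, of 19 listed, was 73360.5, 38887 and 48265 in *Eeyore*, 37125, 36188 and 22903.5 in *Winnie* and 269911, 254736 and 36264 in wild-type mice. Since *Reg3b* and *Reg3g* are also made in the pancreas, the members were read again against wild-type mouse 3 alone, a comparison added after the values were seen. The *Eeyore* difference was then 3.82 for *Reg3g*, 1.98 for *Reg3b* and -0.39 for *Reg4*. For *Reg3g* and *Reg3b* it was larger than with all mice, and for *Reg4* it changed sign. This comparison did not even out the pancreatic transcripts. The mean log2 signal of the acinar markers was 10.38 to 11.55 in *Eeyore* mice, above wild-type mouse 3 (8.37) and all *Winnie* mice (7.03 to 9.92). The part of pancreatic RNA in the member values was not tested, against wild-type or against *Winnie* mice. The *Eeyore* difference of *Reg1* was reversed, as that of *Reg4* was, from -1.26 with all mice (adjusted p = 0.533, limma) to 3.37 against wild-type mouse 3. A comparison with 1 mouse holds no measure of the spread among wild-type mice, where the log2 SD of *Reg1* was 4.01.

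**Figure D3:**
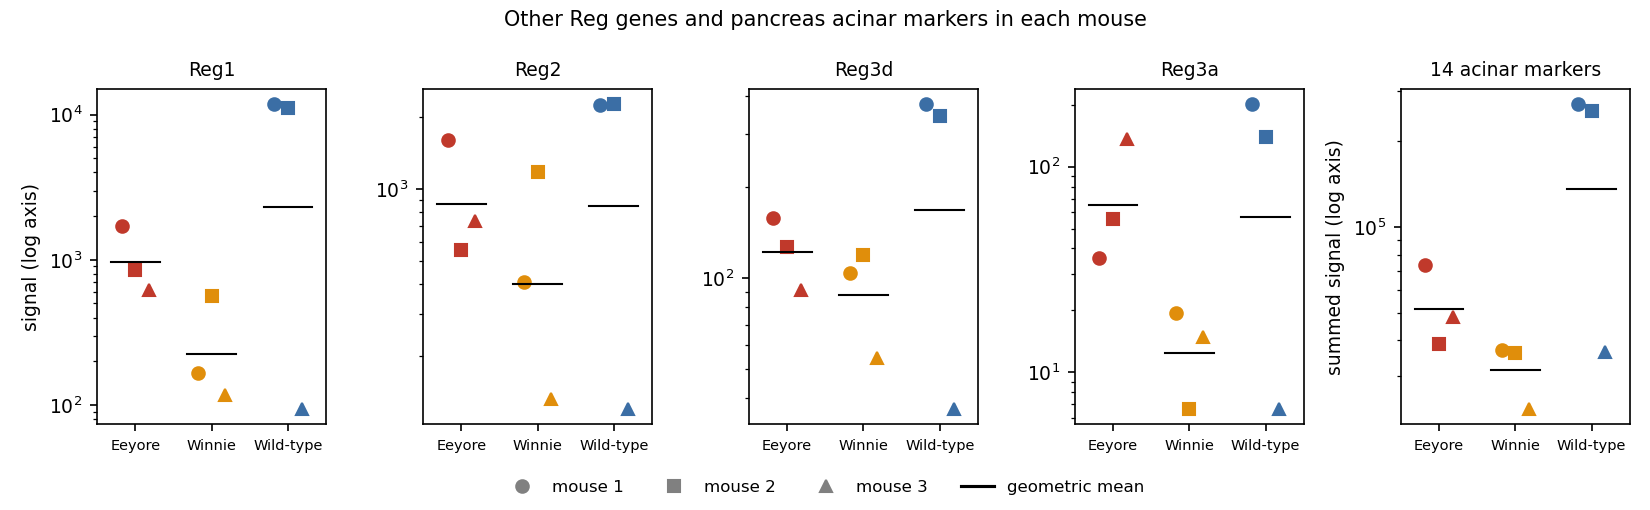
Signal of *Reg1*, *Reg2*, *Reg3d* and *Reg3a* and the summed signal of 14 pancreas acinar markers (log axes, each panel on its own scale) in each of the 9 mice, with geometric means as lines. Wild-type mice 1 and 2 are the highest in all 5 panels, and wild-type mouse 3 is the lowest for the 4 Reg genes.

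The genes with profiles most like those of the members were found by the root mean square (RMS) difference of log2 signals, each centred on its own mean, over the 9 mice and 11452 other tested genes. For *Reg3g*, whose own RMS deviation was 1.62, these were *Igsf23* (0.61), *Lpo* (0.73), *Reg3b* (0.73), *Hsd17b13* (0.77) and *Abhd1* (0.79). *Lpo*, which encodes lactoperoxidase, had log2 differences from wild-type of 4.46 in *Eeyore* and 0.51 in *Winnie* mice. For *Reg3b*, with an own deviation of 1.06, they were *Slc25a29* (0.45), *Apol6* (0.50), *Cxcl13* (0.53), *Derl3* (0.54) and *Psmc3ip* (0.57), and *Reg3g* stood at rank 47. Each of these 5 genes nearest to *Reg3b* differed from wild-type by 0.96 to 1.99 in *Eeyore* and by -0.58 to 0.32 in *Winnie* mice on the log2 scale. Like *Lpo*, they were picked for likeness over the same mice. Such differences follow from that choice, and nothing further is read from them.

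For *Reg4*, with an own deviation of 0.86, the nearest profiles were *Best2* (0.43), *Chrdl2* (0.50), *Mboat2* (0.54), *Nrp* (0.55) and *Ttc5* (0.55). *Best2* encodes bestrophin-2, an anion channel of colonic goblet cells. *Spink4*, a peptide of goblet and deep crypt secretory cells, stood at rank 20 (0.61), and its signal was 44328, 37662 and 34503 in *Eeyore*, 24479, 31084 and 32840.2 in *Winnie* and 27770.5, 23718 and 39531 in wild-type mice. The *Eeyore* mice stood in the same order for *Spink4* as for *Reg4*, and wild-type mouse 3 was again the highest of its group. *Winnie* mice 2 and 3 stood in the other order, and so did wild-type mice 1 and 2. Because *Spink4* was named after its values were seen, nothing further is read from these orders. The log2 difference of *Spink4* was 0.38 in *Eeyore* (adjusted p = 0.11, limma) and -0.02 in *Winnie* mice (adjusted p = 0.949), and after median centring it was called in *Eeyore* (0.71, adjusted p = 0.00922). The mean log2 signal of 17 enteroendocrine markers was 8.23 to 8.85 in *Eeyore*, 8.74 to 9.12 in *Winnie* and 8.97 to 9.40 in wild-type mice, and that of 19 goblet and deep crypt markers, a list that holds *Spink4* and *Muc2*, was 12.44 to 12.74 in *Eeyore*, 12.11 to 12.39 in *Winnie* and 12.73 to 12.85 in wild-type mice. Their part in the *Reg4* values was not tested.

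Antimicrobial proteins of the epithelium other than the Reg lectins were read from the same fit. Of 15 tested, 6 rose and none fell in *Eeyore*, 2 rose and 3 fell in *Winnie*, and 4 were higher in *Eeyore* than in *Winnie* mice (40%, 33.3% and 26.7% called, against 30.6%, 23.2% and 2.59% of 11453 tested genes). After median centring 10 rose in *Eeyore*, and 8 rose and 3 fell in *Winnie* mice, beside 8227 and 8087 calls among all 22519 tested probe sets. *Pglyrp1*, a peptidoglycan recognition protein, had signals of 13413, 14397 and 17452 in *Eeyore*, 3937, 4777 and 3972 in *Winnie* and 4504, 3867 and 3472.5 in wild-type mice. Like *Reg3g*, it was high in *Eeyore* and overlapped in *Winnie* and wild-type mice, with a log2 difference of 1.93 ± 0.13 (SE of the fit) from wild-type and 1.83 ± 0.13 from *Winnie* (adjusted p = 2.49e-06 and 1.09e-05), although after median centring it was also called in *Winnie* against wild-type (0.51, adjusted p = 0.00812). *Slpi*, an inhibitor of neutrophil proteases, rose in both strains (4.59 ± 0.49 and 3.78 ± 0.49, adjusted p = 8.43e-05 and 0.000503), and so did *Pla2g2a*, a bactericidal phospholipase (2.85 ± 0.37 and 2.00 ± 0.37, adjusted p = 0.000278 and 0.0034).

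*Retnlb*, which encodes the goblet cell product RELMβ, stood apart in *Winnie* mice. Its signal was 42105, 33274 and 21976 in *Eeyore*, 3206, 2395 and 2305 in *Winnie* and 11466, 11034 and 28907 in wild-type mice. It fell in *Winnie* (-2.56 ± 0.33, adjusted p = 0.000418) and was higher in *Eeyore* than in *Winnie* mice (3.59 ± 0.33, adjusted p = 7.39e-05). Its rise in *Eeyore* against wild-type (1.02 ± 0.33, adjusted p = 0.0337) was lost without *Eeyore* mouse 1 or 2 (adjusted p = 0.104 and 0.0891) and without wild-type mouse 1 or 2 (0.125 and 0.133), and with quantile normalization or a robust variance model (0.0678 and 0.127). *Ang4*, an angiogenin with bactericidal activity, had 48517, 32768 and 29767 in *Eeyore*, 9991, 1463 and 3402 in *Winnie* and 39574, 37587.5 and 56870.5 in wild-type mice. It fell in *Winnie* (-3.58 ± 0.49, adjusted p = 0.000683) and differed by -0.28 in *Eeyore* (adjusted p = 0.702), and its difference of 3.30 between *Eeyore* and *Winnie* mice (adjusted p = 0.00323) was lost with a robust variance model (0.078). For *Retnlb* and *Ang4*, as for *Reg4*, *Eeyore* mouse 1 was the highest of its group and wild-type mouse 3 of its own. *Winnie* mouse 1, however, was the highest of its group for *Retnlb* and *Ang4* and the lowest for *Reg4*. In likeness to the *Reg4* profile over all mice, *Retnlb* and *Ang4* stood at ranks 9787 and 11275 of 11452 genes. Their RMS differences of 1.09 and 1.60 were above the own deviation of *Reg4* (0.86). The measure counts the size of changes as well as their shape, so that these ranks do not show whether the patterns differ in shape. *Pigr*, which carries immunoglobulin A into the lumen, fell in *Winnie* (-0.71 ± 0.09, adjusted p = 0.000324) and differed by -0.19 in *Eeyore* mice (adjusted p = 0.112). The lysozyme genes *Lyz1* and *Lyz2* rose in *Eeyore* (0.60 ± 0.17 and 1.03 ± 0.23, adjusted p = 0.0196 and 0.00634); they are near-identical, so that their signals may be shared, and the call of *Lyz1* was lost without *Eeyore* mouse 2 or 3 or wild-type mouse 1 or 3 (adjusted p up to 0.0675) and with the mean over probe sets (0.34, adjusted p = 0.533), whereas after median centring both were called in *Winnie* mice too (0.50 and 0.76, adjusted p = 0.0331 and 0.0185).

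Of 19 tested genes known to be induced through STAT3 in epithelium, 8 rose and 4 fell in *Eeyore* (63.2% called), 6 rose and none fell in *Winnie* (31.6%), and 1 differed between the strains (*Il18*, 5.26%), against 30.6%, 23.2% and 2.59% over all tested genes. The median log2 difference of the list was 0.28 in *Eeyore* and 0.32 in *Winnie* mice, against -0.04 and -0.05 over all tested genes. *Socs3*, the feedback inhibitor of STAT3 signalling, had signals of 1641, 2022 and 1598.5 in *Eeyore*, 1489, 2891.5 and 1378 in *Winnie* and 404, 568.5 and 396 in wild-type mice. It rose in both strains (1.95 ± 0.25 and 2.01 ± 0.25, adjusted p = 0.000255 and 0.000389), with a difference between them of -0.05 ± 0.25. *Bcl3*, a regulator of NF-κB, rose by 0.91 and 0.80, *Fut2*, a fucosyltransferase, by 0.83 and 0.78, and *Cebpb*, a transcription factor, by 0.56 and 0.90 in *Eeyore* and *Winnie* mice.

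*S100a8* and *S100a9*, the subunits of calprotectin and also the major cytosolic proteins of neutrophils, rose by 3.58 and 4.77 in *Eeyore* and by 4.14 and 5.06 in *Winnie* mice. The summed signal of 9 neutrophil markers, these 2 among them, was 1156 to 1873 in *Eeyore*, 871 to 5051 in *Winnie* and 326 to 1291 in wild-type mice, and its part in these values was not tested. *Saa3*, an acute-phase protein, differed by 1.45 in *Eeyore* (adjusted p = 0.00646) and 0.63 in *Winnie* mice (adjusted p = 0.189), and *Lcn2*, the siderophore-binding lipocalin-2, by 1.60 (adjusted p = 0.0145) and 1.15 (adjusted p = 0.0712). Both were called in *Winnie* mice after median centring (1.04 and 1.56, adjusted p = 0.0267 and 0.0134). Their differences between the strains were 0.82 and 0.45 (adjusted p = 0.253 and 0.672). *Saa1*, *Muc1*, *Birc3* and *Il18* fell in *Eeyore* mice, by 0.32, 1.83, 0.32 and 0.37, but after median centring *Saa1* and *Birc3* differed by 0.01 each and *Il18* by -0.04 (adjusted p = 0.79). Under that scaling 10 of the list rose and 1 fell in *Eeyore* and 13 rose in *Winnie* mice, beside 8227 and 8087 calls among all 22519 tested probe sets. *Il18* was lower in *Eeyore* than in *Winnie* mice (-0.46, adjusted p = 0.026), a call lost without any of 5 mice (adjusted p up to 0.111). Leaving out 1 mouse ended 6 of these calls. *Lcn2* in *Eeyore* was lost without *Eeyore* mouse 3 or wild-type mouse 1 (adjusted p = 0.0601 and 0.0502), *Muc1* without wild-type mouse 2 (0.0866), *Fut2* in *Winnie* without *Winnie* mouse 2 or wild-type mouse 3 (0.0699 and 0.064), *Saa1* without *Eeyore* mouse 2 or wild-type mouse 1 or 2 (up to 0.136), and *Cebpb* in *Eeyore* and *Birc3* without any of 6 mice (up to 0.131 and 0.14).

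Upstream in that pathway, of 13 tested ligands, receptors and kinases, 2 rose and 1 fell in *Eeyore* (23.1% called), none rose and 1 fell in *Winnie* (7.69%), against 30.6% and 23.2% over all tested genes, and none was called between the strains (2.59% over all tested genes). After median centring 6 rose and 1 fell in *Eeyore* and 6 rose in *Winnie* mice, beside 8227 and 8087 calls among all 22519 tested probe sets. *Il22ra1*, the epithelial receptor chain for interleukin-22, differed by 0.17 in *Eeyore* and 0.21 in *Winnie* mice (adjusted p = 0.597 and 0.532), and *Stat3* itself by 0.10 and 0.18 (adjusted p = 0.615 and 0.363). After median centring *Stat3* was called in both, at 0.42 in *Eeyore* (adjusted p = 0.0444) and 0.59 in *Winnie* mice (adjusted p = 0.00916). *Il6st*, which encodes the gp130 chain shared by interleukin-6 family receptors, fell by 0.84 and 0.70 (adjusted p = 0.00197 and 0.00813), but in *Winnie* mice the call was lost with median centring (-0.29, adjusted p = 0.215) and with the mean over probe sets (-0.48, adjusted p = 0.0999). *Tyk2*, a kinase of the interleukin-22 receptor complex, rose by 0.52 in *Eeyore* (adjusted p = 0.0153) and differed by 0.01 in *Winnie* mice (adjusted p = 0.961), but it was not called in *Eeyore* with the mean over its probe sets (0.32, adjusted p = 0.49) and was called in *Winnie* with median centring (0.42, adjusted p = 0.0403). *Il11*, an interleukin-6 family cytokine, rose by 2.10 in *Eeyore* (adjusted p = 0.0344; 1.70 in *Winnie*, adjusted p = 0.0911), although *Il11* was called in *Winnie* after median centring (2.11, adjusted p = 0.0252), and its call in *Eeyore* was lost without any of 5 mice, all 3 *Eeyore* mice and wild-type mice 2 and 3 (adjusted p up to 0.107). *Il22* was not analysed here, as no probe set is annotated to it alone.

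Of 16 tested genes of bacterial sensing by Toll-like receptors and MyD88, 3 rose and 2 fell in *Eeyore* (31.2% called), 3 rose and 1 fell in *Winnie* (25%), and 1 differed between the strains (*Ly96*, lower in *Eeyore* by 1.14, adjusted p = 0.0297, lost without any of 5 mice, up to 0.0955). These shares are close to those of 30.6% and 23.2% over all tested genes. After median centring 8 rose and none fell in *Eeyore*, and 10 rose and 1 fell in *Winnie* mice. Under that scaling 8227 of all 22519 tested probe sets were called in *Eeyore* and 8087 in *Winnie*. *Cd14*, the co-receptor for lipopolysaccharide, rose by 1.17 and 0.92 (adjusted p = 0.00228 and 0.0116). *Myd88*, the adaptor of most Toll-like receptors, rose by 0.53 and 0.46 (adjusted p = 0.0206 and 0.048). *Tlr4*, the lipopolysaccharide receptor, differed by 0.68 and 0.52 (adjusted p = 0.0196 and 0.0751), and *Tlr2*, which senses lipoproteins, fell by 0.94 and 1.37 (adjusted p = 0.024 and 0.00529). *Ly96*, the MD-2 chain of the *Tlr4* receptor, fell in *Eeyore* (-0.82, adjusted p = 0.0251) and differed by 0.32 in *Winnie* mice (adjusted p = 0.367), and the adaptor *Tirap* rose in *Winnie* (0.79, adjusted p = 0.0122) and differed by 0.49 in *Eeyore* (adjusted p = 0.0736). After median centring the falls of *Tlr2* and *Ly96* in *Eeyore* were not called (adjusted p = 0.0814 and 0.128), and *Tlr4* and *Ly96* in *Winnie* and *Tirap* in *Eeyore* were called as higher (adjusted p = 0.00488, 0.0306 and 0.0109). With the mean over probe sets *Tlr4* in *Eeyore* and *Tirap* in *Winnie* mice were not called (adjusted p = 0.171 and 0.259). Most of these calls were lost with 1 mouse left out, and for *Myd88*, *Tlr4*, *Tlr2* and *Ly96* more than 1 mouse had this effect. The *Myd88* call was lost in *Eeyore* without *Eeyore* mouse 2 or 3 or wild-type mouse 1 or 2 (adjusted p up to 0.0817). The *Myd88* difference in *Eeyore* was 0.46 to 0.50 in those fits. In *Winnie* the *Myd88* call was lost without any of 6 mice (up to 0.157). The *Tlr4* call in *Eeyore* was lost without *Eeyore* mouse 1 or 3 or wild-type mouse 1 (up to 0.0712). Those of *Tlr2* and *Ly96* in *Eeyore* were lost without any of 4 and 5 mice (up to 0.0915 and 0.0738). Those of *Cd14* and *Tirap* in *Winnie* were lost without wild-type mouse 2 (0.0545) and wild-type mouse 1 (0.0528).

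*Extl3*, a glycosyltransferase proposed as the receptor for Reg proteins, had the opposite direction to the lectins in *Eeyore* mice. It was 1 of 2 listed receptor candidates (50% called in each strain, against 30.6% and 23.2% over all tested genes). The other, *Egfr*, differed by 0.27 in *Eeyore* and 0.55 in *Winnie* mice and was not called (adjusted p = 0.413 and 0.111, limma). The signal of *Extl3* was 376 ± 57.4 in *Eeyore*, 385.5 ± 68.2 in *Winnie* and 657.5 ± 91.5 in wild-type mice (SD, n = 3). It fell by 0.81 in *Eeyore* and by 0.78 in *Winnie* mice (SE 0.20 each, adjusted p = 0.00933 and 0.0156, limma), although *Reg3g* and *Reg3b* overlapped wild-type in *Winnie* mice. Both falls fell short of the threshold after centring each array on its median (adjusted p = 0.0672 and 0.16) and with the mean over probe sets (-0.39 and -0.87, adjusted p = 0.409 and 0.0837), and that in *Winnie* mice also without *Winnie* mouse 2 (adjusted p = 0.0594) or wild-type mouse 1 (0.0668).

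**Figure D4:**
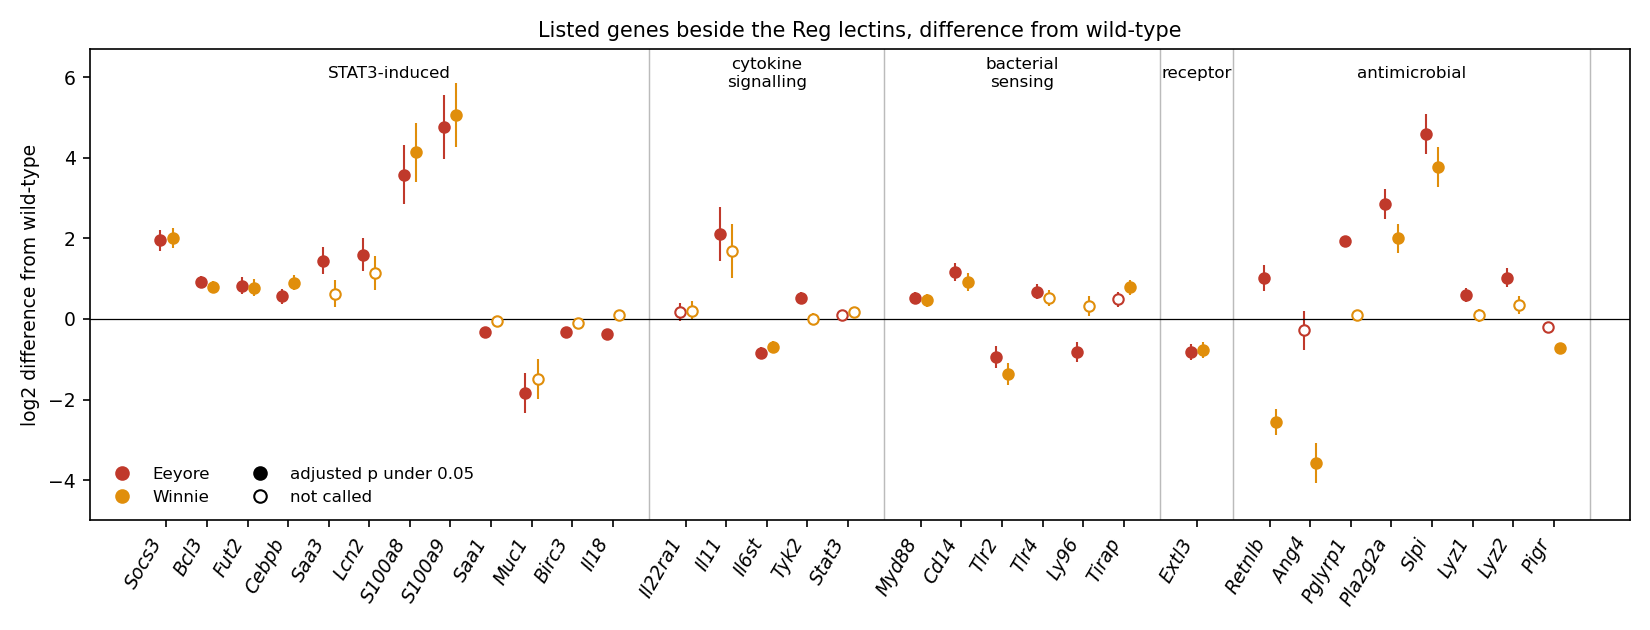
Log2 difference from wild-type of the listed genes beside the Reg lectins in *Eeyore* (red) and *Winnie* mice (orange), with the SE of the limma fit, filled where the adjusted p is under 0.05. *Socs3*, *S100a8*, *S100a9* and *Slpi* rise in both strains, *Pglyrp1* is called in *Eeyore* as deposited (in *Winnie* too after median centring), and *Retnlb* and *Ang4* fall in *Winnie* mice.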

How the data were processed

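Large intestine RNA of 9 mice was hybridised to 1 array per mouse. The values are intensities as the authors deposited them, on a linear scale, with a trimmed mean (2% at each end) of 500 on every array; the summary algorithm is not given in the sources used here. Median signals were 95.5 to 99.3 in *Eeyore*, 87.9 to 95.2 in *Winnie* and 118 to 129 in wild-type mice. Of 45101 probe sets, 45037 were not controls, 34945 of which had 1 gene symbol and 932 several. Symbols were updated through gene identifiers, and the brightest probe set annotated to a gene alone stood for that gene. Signals were taken to log2 without a pseudocount, and the 22519 probe sets with a mean of at least the median of all (6.43 on the log2 scale, a signal of 85.9) were fitted across all mice with limma 3.58.1 in R 4.3.3 (lmFit and eBayes with an intensity trend), with Benjamini-Hochberg adjustment over all of them and a threshold of 0.05. The fit was tested on simulated data.

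The members and the gene lists were chosen with earlier results of these data known, so no test is given for the members. The rule for named genes took all Reg genes, from each list up to 4 of the called genes with the largest difference from wild-type in either strain, preset genes (*Il22*, *Il22ra1*, *Stat3*, *Socs3*, *Myd88*, *Tlr4*, *Lcn2*, *Retnlb*, *Ang4*, *Muc2* and *Extl3*), and the 5 genes nearest in profile to each member; without these last it gave 65 genes beside the members, of which 31 appear, and 8 others named in the text were chosen after their values were seen (*Bcl3*, *Birc3*, *Fut2*, *Il18*, *Pigr*, *Saa1*, *Saa3* and *Spink4*). *Egfr* is named besides these, as the other listed receptor candidate. Alternatives covered scaling, filter, pseudocount, variance model, probe set, epithelial reference, replicate block and leaving out mice. No label says that mice of a group came from separate litters, so that p-values measure the spread between these mice, and 3 arrays per group limit the precision. An exact test of 3 against 3 mice could not go below p = 0.10. Sequences are from RefSeq (GRCm38.p6) and were aligned with Biopython 1.88 in Python 3.11.15; figures were drawn with matplotlib 3.10.9.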

Additional observations from a re-analysis of the deposited data

Results flagged for a closer look

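The strains differed from each other in 6 of the named genes beside the Reg lectins, by limma's test of *Eeyore* against *Winnie* mice. *Pglyrp1* was higher in *Eeyore* by 1.83 on the log2 scale (adjusted p = 1.09e-05), *Retnlb* by 3.59 (adjusted p = 7.39e-05), *Ang4* by 3.30 (adjusted p = 0.00323) and *Pigr* by 0.52 (adjusted p = 0.00667). The call of *Ang4* was lost with a robust variance model (adjusted p = 0.078) and that of *Pigr* without the intensity trend (adjusted p = 0.111). *Il18* differed by -0.46 (adjusted p = 0.026) and *Ly96* by -1.14 (adjusted p = 0.0297). Both were lost without the intensity trend (adjusted p = 0.137 for *Il18* and 0.0751 for *Ly96*) and with only those groups fitted (0.074 and 0.0746). Strain background and *Muc2* allele cannot be told apart in these differences.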

How the results depend on the processing

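The *Reg3g* and *Reg3b* differences of *Eeyore* from both other groups kept their direction under every alternative run. Leaving out 1 mouse gave, for *Eeyore* against wild-type, *Winnie* against wild-type and *Eeyore* against *Winnie*, ranges of 3.22 to 3.64, -0.14 to 0.91 and 2.51 to 3.56 for *Reg3g*, of 1.52 to 1.78, -1.0 to 0.14 and 1.53 to 2.67 for *Reg3b*, and of 0.41 to 1.37, -0.92 to 0.04 and 0.96 to 1.77 for *Reg4*. The *Reg3b* difference of *Eeyore* from wild-type was 2.00 with median centring, 1.34 relative to epithelial markers, 1.14 with its other probe set and 1.40 with the mean of both. Without wild-type mice 1 and 2, chosen after seeing the data and leaving 1 wild-type mouse that is assumed to vary like the other groups, it was 1.98, *Reg3g* had 3.82, *Reg4* had -0.39 in *Eeyore* and -1.72 in *Winnie*, and *Reg1* was reversed at 3.37. With median centring *Saa1* was reversed at 0.01 in *Eeyore* and 0.36 in *Winnie*, and *Birc3* at 0.01 in *Eeyore*. The cause was not tested.

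Calls over probe sets were 6589, 4834 and 519 in the 3 comparisons in that order. They were 4475 to 6789, 2896 to 5148 (lowest without wild-type mouse 2) and 295 (without *Winnie* mouse 3) to 848 (without *Eeyore* mouse 1) with 1 mouse left out. Against wild-type, a filter at the 75th percentile gave 4326 in *Eeyore*, median centring 8087 in *Winnie*, and leaving out wild-type mice 1 and 2 gave 1639 and 606; without the intensity trend 282 differed between strains. Between the strains 46.2% of calls were higher in *Eeyore* as deposited and 33.1% with median centring. Mice with the same number did not deviate together (r from -0.00821 to 0.164, 1 of 9 pairs above 0.1), and with mouse number as a replicate block the calls were 6604, 4872 and 524, with the members at 3.42, 1.67 and 0.78 in *Eeyore* against wild-type; *Cebpb* and *Birc3* in *Eeyore* were then not called (adjusted p = 0.066 and 0.0583), and *Reg1* was called in *Winnie* (-3.37, adjusted p = 0.0448).

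Calls among the STAT3-induced genes were 8 to 13, 5 to 8 and 0 to 1 with 1 mouse left out; without wild-type mice 1 and 2 they were 3, 2 and 0, with median centring 13 in *Winnie*, and between strains 0 without the trend or with only those groups fitted. Among the ligands, receptors and kinases they were 2 to 3, 1 to 2 and 0 with 1 mouse left out; in *Eeyore* 7 with median centring, 1 without wild-type mice 1 and 2 and 1 with the mean over probe sets, and in *Winnie* 2 with quantile normalization, 6 with median centring, 2 without the trend and 0 with the mean over probe sets. Among the bacterial sensing genes they were 1 to 6, 2 to 5 and 0 to 1 with 1 mouse left out; with median centring 8 in *Eeyore* and 11 in *Winnie*, without wild-type mice 1 and 2 they were 0 in all comparisons, with the mean over probe sets 2 in *Winnie*, and between strains 0 with the 75th percentile filter, without the trend or with only those groups fitted. Among the antimicrobial proteins they were 4 to 6, 5 to 7 and 4 to 6 with 1 mouse left out; with median centring 10 in *Eeyore* and 11 in *Winnie*, and without wild-type mice 1 and 2 there were 3 in *Eeyore*. Of 56 calls of named genes, 20 were kept under every alternative. Probe sets under the filter were not tested, so that dim genes such as *Reg3a* have values only.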
